A study of Mus musculus with 6 samples.

Results

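The genes described here encode the enzymes and the chloride transporter with which an osteoclast dissolves bone: Acp5, Ctsk, Mmp9, Mmp14, Car2, Clcn7 and Ostm1. They were chosen by symbol, and all 7 were found among the 24940 genes of the deposited table. All 7 were also among the 11595 genes whose mean over the 6 libraries reached 0.5 RPKM, the level set for testing. RPKM is the number of reads scaled to transcript length and to the mapped reads of the library, so levels of different genes can be compared on it.

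Bone marrow-derived macrophages (BMMs), macrophages that M-CSF yields from mouse marrow and that can turn into osteoclasts, were profiled by RNA sequencing after 3 days under 3 conditions, with 2 libraries each. The -R cultures received M-CSF alone at 30 ng/mL, the +R cultures the same M-CSF with RANKL at 100 ng/mL, and the R+LE cultures M-CSF and RANKL with LE at 10 μg/mL. RANKL is the cytokine that drives precursors to become osteoclasts, and LE is a methanol extract of the leaves of Abeliophyllum distichum. By the labels the donors were C57BL/6 animals, 6 to 8 weeks old, and cells were treated in 48-well plates, while the methods of the study give ICR mice and 6-well plates, and no genetic change was made in any group. The labels do not say whether replicates were separate cultures or animals, so that p-values measure only the spread between these libraries.

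An osteoclast seals off a patch of bone and acidifies the space beneath it across a folded membrane, the ruffled border. Carbonic anhydrase 2 supplies the protons, a V-type ATPase pumps them out, and the chloride-proton exchanger ClC-7 with its partner Ostm1 carries the counter-ion. The acid dissolves the mineral, and cathepsin K, matrix metalloproteinases and tartrate-resistant acid phosphatase (TRAP, from Acp5) act on the exposed matrix.

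The libraries held between 29390214 and 34846378 mapped reads, recovered from the steps between low RPKM values, with 74.2% to 80.7% of them on genes. All 7 macrophage markers, which define the labelled cell type, were present in every library, and summed to 6664 to 7250 RPKM in -R, 2690 to 3454 in +R and 3762 to 4204 under R+LE. Lyz2 made up most of this sum, with means of 5317, 2132 and 3060 RPKM, and the members did not all follow it: the means were 70.5, 90.2 and 104.2 RPKM for Itgam, 338.4, 206.0 and 185.2 for Csf1r and 771.1, 444.9 and 336.5 for Cd68. A list of 7 osteoclast markers that holds none of the genes described here summed to 5.88 to 6.56 RPKM in -R, 290.5 to 342.8 in +R and 63.7 to 80.6 under R+LE, with Calcr, Oscar and Siglec15 at 0 in -R. The genes that rose with RANKL moved beside this list, and in bulk samples fewer cells of a type and less RNA per cell cannot be told apart.

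Of the 9 markers of osteoblasts and stroma, 3 passed the filter on low values, and the sum of the list was 14.7 to 16.2 RPKM in -R, 10.0 to 14.0 in +R and 8.12 to 9.58 under R+LE. Most of it came from the collagen genes Col1a1, with means of 7.66 RPKM in -R, 5.53 in +R and 3.80 under R+LE, and Col1a2, with means of 5.92, 5.31 and 3.51. Runx2, the other that passed, lay between 0.755 and 1.68 RPKM, and Bglap, the osteocalcin gene, was at 0 in 5 of 6 libraries. The 8 neutrophil markers summed to 15.6 to 17.5 RPKM in -R and to at most 2.53 in the other libraries. Of the 4 dendritic cell markers, only Itgax passed the filter. Their sum was 2.76 to 3.18 RPKM in -R, 5.21 to 7.75 in +R and 3.12 to 3.72 under R+LE. This sum moved in the same direction as the genes that RANKL raised. Most of it was Itgax, which was called higher with RANKL at 1.02. From -R to +R the mean of Zbtb46 also rose, from 0.0855 to 0.8275 RPKM. Flt3 and Xcr1 went the other way, from 0.2435 to 0.009 and from 0.251 to 0.117 RPKM. The 4 megakaryocyte markers, nearly all Pf4, went from 119.5 to 123.6 RPKM in -R to between 6.00 and 8.75 in +R and to between 12.8 and 18.4 under R+LE. The 4 endothelial markers summed to 2.29 to 2.39 RPKM in -R, 1.99 to 2.09 in +R and 0.650 to 0.717 under R+LE, and Kdr among them was called lower with LE at -1.20. The part of these other cell types in the results was not tested.

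With RANKL, 5 of the 7 genes were called higher and none lower, where a call needed an adjusted p below 0.05 and a change of at least 2-fold in limma. Over all genes tested, 6.58% were called higher and 8.92% lower. At an unadjusted p below 0.05 there were 6 higher and 0 lower, and voom on the recovered reads called 5 and 0. The 5 were Mmp9, Car2, Ctsk, Mmp14 and Acp5. Of all 11595 genes tested, voom called 899 higher and 1221 lower. In limma, 3465 of all genes tested had an adjusted p below 0.05 but were under 2-fold, so a low p alone was common. The median log2 fold change of the 7 was 4.82, beside 0.05 over all genes tested. The +R libraries lay above both -R libraries for all but Ostm1, which 40.3% of tested genes also did.

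With LE added to RANKL, 6 of the 7 were called lower and none higher, against 1.78% of genes tested called lower and 1.46% called higher. At an unadjusted p below 0.05 there were 7 lower and 0 higher, and voom called 6 and 0. Ostm1 was the exception to the calls. Of all 11595 genes tested, voom called 260 lower and 259 higher. In limma, 1022 of all genes tested had an adjusted p below 0.05 but were under 2-fold. The median log2 fold change of the 7 was -2.41, beside -0.05 over all genes tested. Both R+LE libraries lay below both +R libraries for all 7, as they did for 29.5% of genes tested.

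The R+LE cultures did not return to the level of -R for the genes that RANKL raised. In R+LE against -R, the 5 genes called higher with RANKL were again called higher, against 3.92% of genes tested, and none was called lower, against 6.36%. At an unadjusted p below 0.05 there were 5 higher and 0 lower, as with voom. In limma, 2782 of the 11595 genes tested had an adjusted p below 0.05 but were under 2-fold. The R+LE libraries lay above both -R libraries for the 5 genes that RANKL raised, which 31.2% of tested genes also did. For Clcn7 and Ostm1, neither of which was called, they lay below both -R libraries. The share of all genes that did so was not counted. The median log2 fold change of the 7 was 2.33, beside -0.01 over all genes. These 3 comparisons share libraries and are not independent of each other. With 2 libraries a group, the smallest p of an exact permutation (two-sided) for any gene is 0.333, so the tests rest on the spread that limma pooled over genes.

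**Figure D1:**
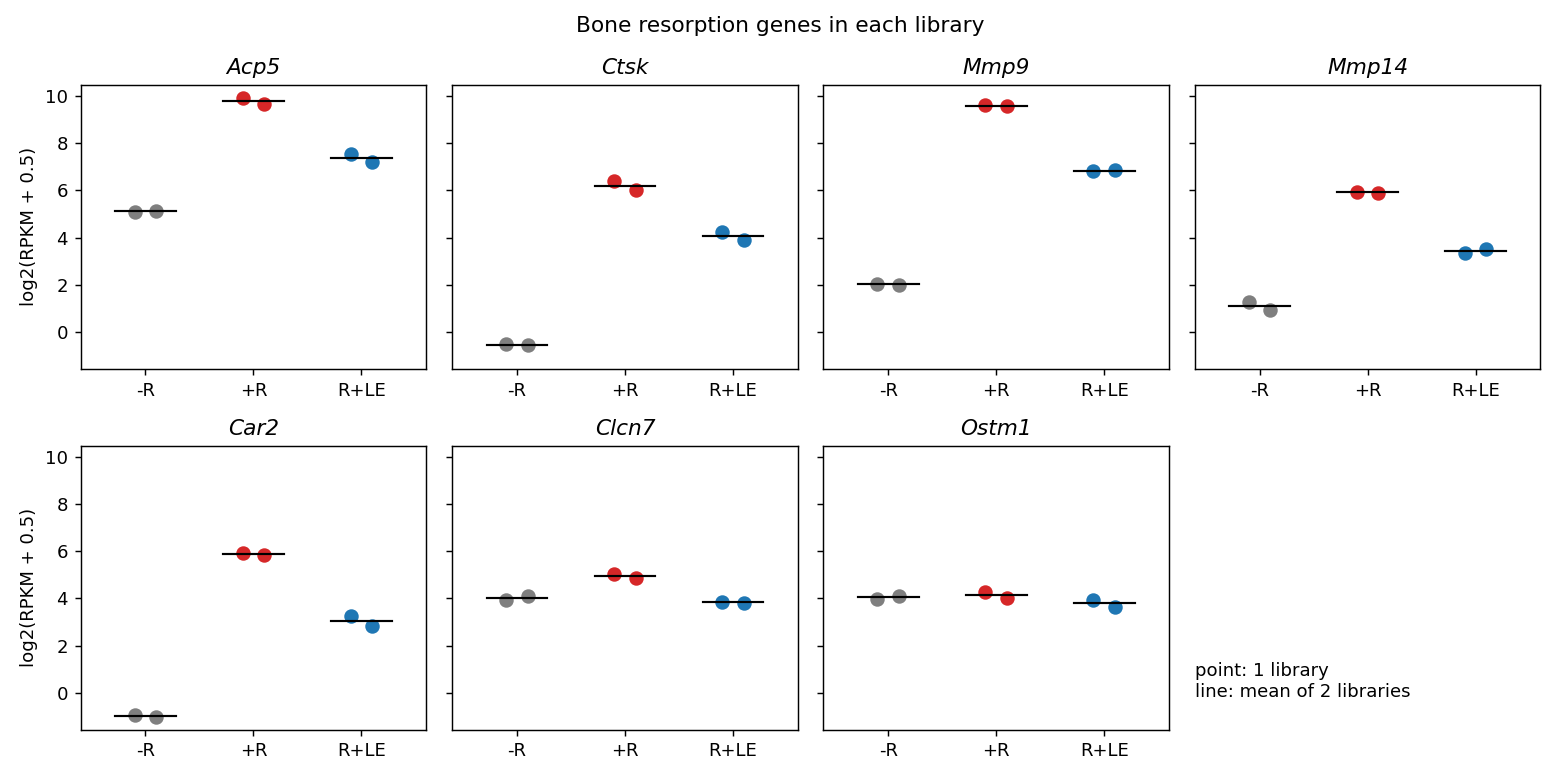
The level of each gene, as log2(RPKM + 0.5), in the -R (grey), +R (red) and R+LE (blue) libraries, with a point for each of the 2 libraries of a condition and a line for their mean. Acp5, Ctsk, Mmp9, Mmp14 and Car2 are highest in +R and intermediate in R+LE, while Clcn7 moves over a narrow range and the Ostm1 points lie at similar heights.

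The genes that serve acid secretion covered a wide range of responses. Car2, the enzyme that turns carbon dioxide and water into bicarbonate and a proton, lies at chr3:14886269-14900770 on the plus strand (mm10). It was read at 0.020 and 0 RPKM in -R, from 1 read and 0 reads, at 60.9 and 57.0 RPKM in +R and at 9.15 and 6.59 RPKM in R+LE. The precursors thus held next to no Car2 transcript, and the 3 conditions did not overlap. Counted in reads, +R held 6150 against 1 in -R, a ratio per mapped read of 6433 with an exact 95% interval of 1154 to 254150. R+LE held 832 reads, a ratio of 861.7 to -R with an interval of 154.2 to 34076. These intervals cover counting error only. On the log2(RPKM + 0.5) scale the rise with RANKL was 6.86 (SE 0.16, adjusted p = 3.14e-13 in limma), a size that depends on the added 0.5. The size of the fall with LE does not involve the -R libraries, and was -2.84 (SE 0.16, adjusted p = 3.71e-08 in limma). Its SE and p do, since limma took the spread from all 6 libraries, with Car2 near 0 in -R. With only the compared groups in the fit, the adjusted p was 2.98e-05. The fall left 15.5% and 11.2% of the mean +R level in the R+LE libraries.

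Clcn7 encodes the exchanger ClC-7 of lysosomes and of the ruffled border, and lies at chr17:25133391-25162103 on the plus strand, with 25 exons. Its RPKM was 14.6 and 16.7 in -R, 32.2 and 28.7 in +R, and 14.1 and 13.6 under R+LE. The +R libraries stood above the other 4, which lay close together. The log2 fold change with RANKL was 0.94 (95% interval 0.64 to 1.24, adjusted p = 5.35e-05 in limma), so it passed the p threshold and missed the 2-fold limit. It crossed that limit without -R replicate 2, at 1.03, without +R replicate 2, at 1.02, and at 1.002 when reads on Rn45s, the ribosomal RNA precursor, were left out of the depth. Rn45s held 4.97% to 6.83% of the reads on genes in -R, 10.9% to 11.1% in +R and 11.2% to 13.5% in R+LE. With LE, Clcn7 was called lower at -1.11 (95% interval -1.41 to -0.81, adjusted p = 7.26e-05). Against -R, R+LE differed by -0.17 with an interval of -0.47 to 0.13 (adjusted p = 0.379).

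Ostm1 encodes the membrane protein that ClC-7 needs for its stability, and lies at chr10:42678916-42702462 on the plus strand, with 6 exons. Its RPKM was 15.5 and 16.9 in -R, 19.0 and 15.7 in +R, and 14.9 and 12.1 under R+LE. The +R and -R libraries overlapped, with a log2 difference of 0.09 (95% interval -0.23 to 0.42, adjusted p = 0.641 in limma), which became -0.04 without +R replicate 1. An interval of this width does not hold a 2-fold change. R+LE lay below +R in both libraries, with a log2 difference of -0.35 (95% interval -0.68 to -0.03) whose p was 0.0351 before and 0.170 after adjustment. Against -R, R+LE differed by -0.26 with an interval of -0.58 to 0.07 (adjusted p = 0.210 in limma). Ostm1 shares 166 bp of exon with Gm15200 on the opposite strand, and the reads were counted without regard to strand, so its reads and those of Gm15200 cannot be told apart there.

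The transporter and its partner therefore did not keep to a fixed ratio of transcripts. Clcn7 stood at 0.946 and 0.986 times the RPKM of Ostm1 in the -R libraries, at 1.69 and 1.83 times in +R and at 0.943 and 1.13 times in R+LE. This ratio within a library does not depend on how the library was scaled. The +R libraries were above the other 4, and the -R and R+LE libraries overlapped.

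The sequence before each start was read for Clcn7 and Ostm1, whose proteins form 1 complex while their transcripts moved unequally, and for Acp5 and Ctsk, which rose with RANKL at very different starting levels. The 250 bases before the start are given from 5′ to 3′ on the strand of the gene, from the RefSeq promoters of GRCm38.p6, the assembly that mm10 names. They cover chr17:25133141-25133390 (plus) for Clcn7, chr10:42678666-42678915 (plus) for Ostm1, chr9:22130599-22130848 (minus) for Acp5 and chr3:95498960-95499209 (plus) for Ctsk. Capitals mark matches on either strand to GGAAA (the core that NFAT factors bind), TGANTCA (AP-1), CACGTG (E-box), CATGTG (M-box of MITF) or the NF-κB pattern of 3 G, any 5 bases and 2 C.
Clcn7: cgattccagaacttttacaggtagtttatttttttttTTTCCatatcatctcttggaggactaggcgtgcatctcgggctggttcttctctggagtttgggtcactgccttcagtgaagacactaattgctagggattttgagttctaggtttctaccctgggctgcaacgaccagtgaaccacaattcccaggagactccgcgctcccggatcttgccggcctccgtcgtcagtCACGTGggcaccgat
Ostm1: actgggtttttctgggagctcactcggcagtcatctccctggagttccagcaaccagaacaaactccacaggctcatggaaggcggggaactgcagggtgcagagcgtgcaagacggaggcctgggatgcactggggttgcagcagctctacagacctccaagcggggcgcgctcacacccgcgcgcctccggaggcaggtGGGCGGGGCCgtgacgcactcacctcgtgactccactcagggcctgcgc
Acp5: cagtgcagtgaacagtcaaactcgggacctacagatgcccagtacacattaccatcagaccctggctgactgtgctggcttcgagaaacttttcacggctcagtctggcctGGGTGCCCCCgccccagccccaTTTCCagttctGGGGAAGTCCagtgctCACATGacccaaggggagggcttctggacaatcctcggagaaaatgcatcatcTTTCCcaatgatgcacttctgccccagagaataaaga
Ctsk: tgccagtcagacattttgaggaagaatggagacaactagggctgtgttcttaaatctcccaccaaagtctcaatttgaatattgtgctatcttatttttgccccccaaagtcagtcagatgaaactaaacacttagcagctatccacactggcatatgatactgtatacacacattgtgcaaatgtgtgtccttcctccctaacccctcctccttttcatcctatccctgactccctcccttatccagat
In the windows of 300 bases, which run on for 50 bases from the start, 5 of the 7 genes had an entry, Mmp14 being the other beside these 4. Clcn7 held CACGTG at 15 bases before the start and again at base 8 after it, and 7.15% of all 32851 windows hold this E-box. Ostm1 held none of the letters for NFAT, AP-1, E-box or M-box, and a match to the NF-κB pattern, which 50.8% of windows hold. Acp5 had 2 matches to GGAAA, 2 to the NF-κB pattern and 1 to CATGTG, which 14.2% of windows hold. Ctsk had 1 match to GGAAA, which starts at the first transcribed base and is not shown, and Mmp14 had 1 as well. GGAAA is in 61.3% of windows. TGANTCA, in 7.81% of windows, was in none of the 5. No 2 matches overlapped. A match describes these letters only and does not show that a factor binds.

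The proteases of the matrix rose from low or moderate levels. Ctsk, cathepsin K, the cysteine protease that cuts collagen in the acid space, lies at chr3:95499210-95509387 on the plus strand with 8 exons. Its RPKM was 0.216 and 0.182 in -R, from 10 reads in each library, 83.3 and 64.3 in +R, and 18.2 and 14.3 under R+LE. No libraries of different conditions overlapped. The mean rose 371.1-fold with RANKL, or 6.72 on the log2(RPKM + 0.5) scale (SE 0.16, adjusted p = 3.49e-13 in limma), and fell by 2.15 on that scale with LE (SE 0.16, adjusted p = 6.41e-07). The size of the rise depends on the added 0.5, since Ctsk was near 0 in -R, and was 5.95 with a pseudocount of 1, 7.94 with 0.1 and 8.46 with voom on the recovered reads. R+LE kept 22.0% of the +R mean and was still 81.5-fold above -R.

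Mmp9 encodes gelatinase B, a secreted metalloproteinase that cleaves denatured collagen, and lies at chr2:164948219-164955850 on the plus strand with 13 exons. Its RPKM was 3.66 and 3.47 in -R, 782.1 and 758.1 in +R, and 110.9 and 116.7 under R+LE. The replicates lay close together at each level. The log2 rise with RANKL was 7.57 (SE 0.14, adjusted p = 2.71e-14), and LE took it down by -2.75 (SE 0.14, adjusted p = 1.36e-08 in limma), to 14.8% of the +R mean.

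Mmp14 encodes MT1-MMP, a metalloproteinase held in the membrane that cuts collagen at the cell surface and activates other metalloproteinases. It lies at chr14:54431598-54442456 on the plus strand with 10 exons. Its RPKM was 1.90 and 1.41 in -R, 60.9 and 59.3 in +R, and 9.61 and 11.02 under R+LE. The conditions did not overlap, and the rise of 4.82 in log2 (SE 0.15, adjusted p = 2.87e-12) and the fall of -2.49 (SE 0.15, adjusted p = 8.41e-08 in limma) left 17.2% of the +R mean in R+LE.

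The secreted enzyme rose further with RANKL than the membrane enzyme. Mmp9 stood at 1.92 and 2.46 times the RPKM of Mmp14 in -R, at 12.9 and 12.8 times in +R and at 11.5 and 10.6 times in R+LE. With LE the excess of Mmp9 thus stayed near its +R size while both transcripts fell, and the R+LE ratios were a little below those of +R. The lowest of these ratios, in -R, rest on few RPKM of either gene.

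**Figure D2:**
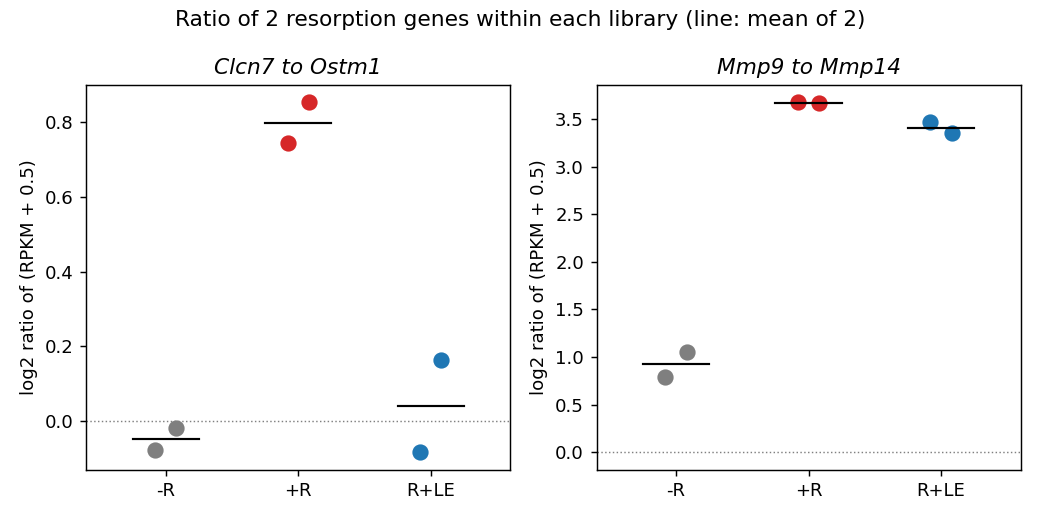
The log2 ratio of Clcn7 to Ostm1 (left) and of Mmp9 to Mmp14 (right), with 0.5 added to each RPKM, in each library, with a line at the mean of the 2 libraries and a dotted line at equal levels. The Clcn7 to Ostm1 ratio is higher in both +R libraries than in the other 4, with a mean of 0.80, whereas the Mmp9 to Mmp14 ratio is 3.67 in +R and 3.40 under R+LE.

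Acp5, the gene of TRAP, whose staining marks osteoclasts, lies at chr9:22126727-22130598 on the minus strand with 5 exons. Unlike the other genes that RANKL raised, it was already well expressed in the precursors, at 33.6 and 34.8 RPKM in -R. It reached 964.1 and 794.9 RPKM in +R and stood at 184.7 and 146.9 under R+LE. The conditions were well apart. The log2 rise was 4.66 (SE 0.17, adjusted p = 1.67e-11) and the fall with LE -2.41 (SE 0.17, adjusted p = 3.84e-07 in limma), which left R+LE 4.85-fold above -R. Acp5 shares 137 bp of exon with 6530413G14Rik on the opposite strand, where reads of both cannot be told apart.

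**Figure D3:**
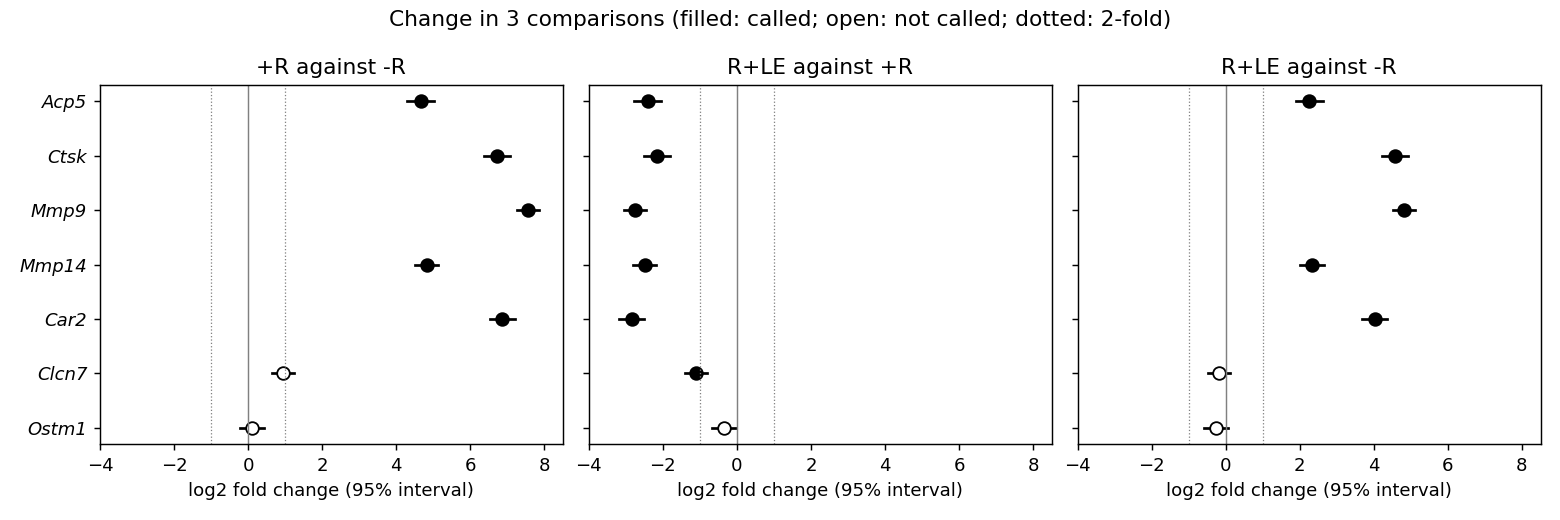
Log2 fold change of each gene with its 95% interval from limma in the 3 comparisons, filled where called (adjusted p below 0.05 and at least 2-fold, dotted lines). Clcn7 is open in +R against -R at 0.94 and filled in R+LE against +R at -1.11, and Ostm1 is open in all 3.

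The log2 change with LE lay between -2.84 and -2.15 for the 5 enzymes, and the 95% intervals of Clcn7 and Ostm1 lay wholly nearer to 0 than those of the 5. By size of the fitted fall among the 11595 genes tested, Car2 took place 3, Mmp9 4, Mmp14 6, Acp5 7, Ctsk 18, Clcn7 175 and Ostm1 1580. The share of the +R mean left in R+LE ran from 13.4% for Car2 to 22.0% for Ctsk among the 5 genes that RANKL raised, and was 45.4% for Clcn7 and 77.8% for Ostm1. Among the 5 genes that RANKL raised, the 95% intervals of neighbours in this order all overlap, and differences between genes were not tested. The intervals at the ends of this order did not overlap, at -3.18 to -2.51 for Car2 and -2.49 to -1.81 for Ctsk. Without R+LE replicate 2 the log2 change was -2.62 for Car2 and -2.79 for Mmp9, which exchanges their order.

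The order of the levels changed between the conditions. In -R, Acp5 was highest, followed by Ostm1 and Clcn7, whose libraries overlapped, then Mmp9, Mmp14, Ctsk and Car2. In +R, Acp5 and Mmp9 stood 10.4-fold or more above Ctsk, followed by Mmp14 and Car2, whose libraries overlapped, and Clcn7 and Ostm1 came last. In R+LE, Acp5, Mmp9 and Ctsk were again the first 3, but Clcn7 and Ostm1, which overlapped, came before Mmp14 and Car2.

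As a share of all reads on genes, the 7 genes took 0.0218% and 0.0230% in the -R libraries, 0.548% and 0.531% in +R, and 0.0971% and 0.0988% under R+LE. The libraries of the 3 conditions did not overlap in this share. Clcn7 held the largest part of these reads in -R, at 34.8% and 37.1%, and Mmp9 in +R, at 55.9% and 59.1%. Acp5 and Mmp9 together made up 85.2% and 85.5% of the reads of the 7 genes in +R, 76.7% and 77.3% in R+LE and 33.4% and 31.9% in -R.

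Among the other tested members of the same enzyme families, 1 was called higher with RANKL, the cathepsin Ctsf. Of 11 other cathepsins tested, 7 were called lower with RANKL and 1 higher, and their median log2 fold change was -1.71. Ctsl, a lysosomal cysteine protease, went from 1249 and 1317 RPKM in -R to 125.6 and 101.4 in +R, a log2 change of -3.50 (SE 0.20, adjusted p = 1.48e-09 in limma). The log2 change was -2.32 for Ctsb and -1.82 for the aspartic protease Ctsd. Ctsf, at 1.52 RPKM on average in -R and 5.45 in +R, was the 1 that rose. Several cathepsins still exceeded Ctsk in +R, which had a mean of 73.8 RPKM. Among them were Ctsd at 750.2, Ctsb at 197.3 and Ctsl at 113.5 RPKM. With LE, Ctsl rose by 1.39 (adjusted p = 0.000236), and no other of these 11 was called. Ctsh, at 0.99 (adjusted p = 0.000765), was just under 2-fold, and voom called 2 of the 11 higher.

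Of 6 other metalloproteinases tested, none was called higher with RANKL and 4 were called lower, namely Mmp8, Mmp12, Mmp13 and Mmp27. Mmp12, the macrophage elastase, stood at 16.5 and 17.8 RPKM in -R, 3.82 and 2.37 in +R, and 11.5 and 8.61 under R+LE. It was lowest in +R, where Mmp9 and Mmp14 were highest. Its log2 change was -2.32 with RANKL and 1.57 with LE (adjusted p = 4.35e-05 in limma), and Mmp8, the neutrophil collagenase, was the other called higher with LE, at 1.61. Mmp8 moved beside the neutrophil markers from -R to +R. With LE, Mmp8 stood at 2.40 and 1.78 RPKM, from 0.454 and 0.240 in +R. The neutrophil markers summed to 0.716 to 0.816 RPKM in +R and 0.592 to 2.53 under R+LE, which overlap. The part of neutrophils in the level of Mmp8 was not tested. Mmp2, which MT1-MMP activates, had means of 0.252 to 0.367 RPKM and was not tested.

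Of 7 genes for inhibitors and activators of these proteases, 3 were called lower with RANKL: Furin, a convertase that activates MT1-MMP, Plaur, the receptor of urokinase, and Plau, urokinase itself, which went from a mean of 110.4 RPKM to 12.6. With LE none of the 7 was called, although 4 had an unadjusted p below 0.05, 2 in each direction, and voom called 1 higher. Of these 4, 2 also passed the adjusted threshold and were under 2-fold. Timp2, the inhibitor that also links MT1-MMP to its substrate, had RPKM of 20.9 and 22.1 in -R, 19.1 and 21.1 in +R and 12.3 and 11.5 under R+LE, and its log2 difference with LE of -0.73 (adjusted p = 0.00207) was under 2-fold. Of 3 inhibitors of cysteine proteases tested, none was called with RANKL. Cst7, cystatin F, had a log2 difference of 0.75 with RANKL (adjusted p = 0.0195 in limma), under 2-fold, and was called higher by voom. With LE, Cst7 was called lower at -1.01, from a mean of 1.05 RPKM to 0.263.

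Neither the 4 other carbonic anhydrases tested nor the 4 other CLC genes tested were called in any of the 3 comparisons by limma or voom. At an unadjusted p below 0.05, 2 carbonic anhydrases and 1 CLC gene were lower with RANKL, 0 and 0 differed with LE, and 1 and 2 were lower in R+LE against -R. Of these, 2 and 0 also passed the adjusted threshold with RANKL, and 1 and 1 in R+LE against -R, all under 2-fold. The carbonic anhydrases, Car5b, Car9, Car13 and Car14, had log2 changes of between -0.57 and -0.0013 with RANKL, and the CLC genes, Clcn3, Clcn4, Clcn5 and Clcn6, -0.41 to 0.10. In +R, Car2 at a mean of 58.9 RPKM stood above the next of its family, Car5b at 7.07, whereas in -R Car5b, a mitochondrial enzyme, led with 9.71. By its mean Clcn7 was the highest of the CLC genes in all 3 conditions, although under R+LE its libraries, at 14.1 and 13.6 RPKM, overlapped those of Clcn4, at 11.4 and 13.6. Of 4 other acid phosphatases tested, none was called with RANKL or with LE, with 2 and 1 lower at an unadjusted p below 0.05 and 1 and 0 called lower by voom. The 2 lower with RANKL also passed the adjusted threshold and were under 2-fold, while the 1 lower with LE did not pass it.

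**Figure D4:**
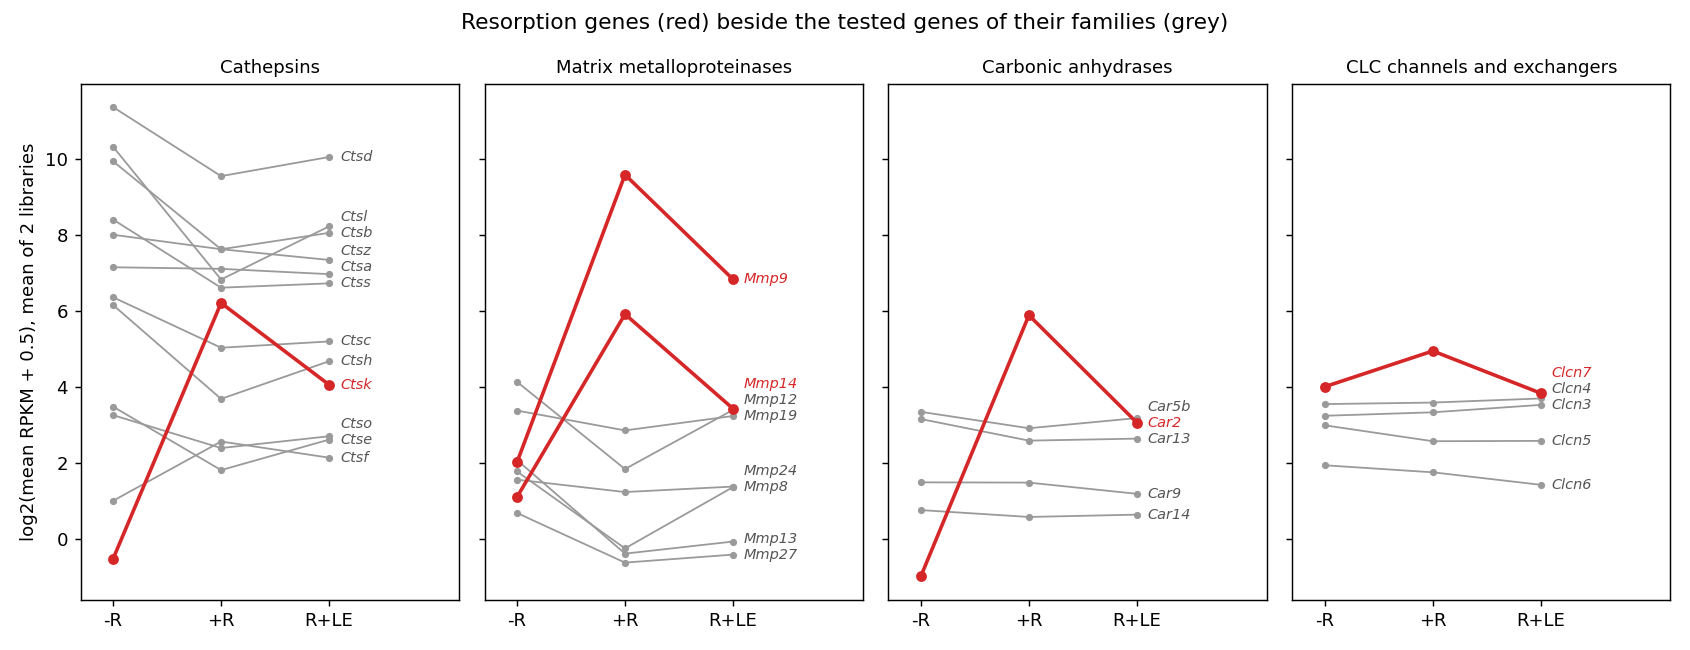
Mean level of the 2 libraries of each condition, as log2(mean RPKM + 0.5), for the genes described (red) and the other tested genes of their families (grey). Ctsk, Mmp9, Mmp14 and Car2 climb from -R to +R and drop in R+LE, while most other cathepsins and metalloproteinases are highest in -R. Gene names at the right are spaced apart to stay legible.

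Around ClC-7, 3 of 11 genes for acid and ion transport were called higher with RANKL and 1 lower. Atp6v0d2, the proton pump subunit typical of osteoclasts, stood at 2.93 and 3.57 RPKM in -R, 176.1 and 147.4 in +R and 36.5 and 28.5 under R+LE, and was called lower with LE at -2.30. Slc4a2, the exchanger that brings in chloride and removes the bicarbonate left by Car2, stood at 26.2 and 25.8 RPKM in -R, 61.8 and 62.2 in +R and 26.3 and 24.7 under R+LE. Like Clcn7 it stood near its -R level in R+LE, with log2 changes of 1.24 with RANKL, -1.26 with LE and -0.03 for R+LE against -R (adjusted p = 0.901 in limma). The bicarbonate importer Slc4a7 rose by 2.67 and stayed, at 55.0 and 55.4 RPKM in +R and 56.4 and 60.6 under R+LE, a log2 difference of 0.08 (adjusted p = 0.815 in limma). Slc9a3r1, a scaffold protein of ion exchangers, was the 1 that fell, by 1.35. Tcirg1, the osteoclast subunit a3 of the pump, had a log2 difference of 0.55 with RANKL and -0.88 with LE. Both passed the p threshold (adjusted p = 0.0111 and 0.00181 in limma) and were under 2-fold. With LE, 5 of the 11 genes were lower and 1 higher at an unadjusted p below 0.05. Besides the 2 called lower, 4 of them passed the adjusted threshold and were under 2-fold.

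Of 11 tested genes for the traffic of the ruffled border, 2 were called higher with RANKL and 1 lower. Voom called 2 higher and 2 lower, and 2 were higher and 8 lower at an unadjusted p below 0.05. Besides those called in limma, 7 passed the adjusted threshold and were under 2-fold. The median log2 fold change of this list with RANKL was -0.67. Snx10, a sorting protein needed for acid secretion, rose by 1.37, Rab38, a small GTPase of lysosome-related organelles, rose from a mean of 0.233 RPKM to 5.78 and fell by 1.58 in log2 with LE, and Plekhm1, an adaptor of late endosomes, fell by 1.33 with RANKL. The lysosomal membrane proteins Lamp1 and Lamp2, beside which ClC-7 resides, had log2 differences with RANKL of -0.84 and -0.82. These passed the p threshold (adjusted p = 0.000968 and 0.000859 in limma) and were under 2-fold. Of 8 genes for attachment, the integrin Itgb3, the kinase Src and the actin-binding Cttn were called higher with RANKL, at 5.59, 4.27 and 2.12, and lower with LE, and Ptk2b was called lower with RANKL at -1.53.

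Of 11 regulators, 3 were called higher and 1 lower with RANKL. Nfatc1, the main transcription factor of osteoclast formation, rose from a mean of 5.61 RPKM to 51.8 and fell by 1.31 in log2 with LE, and Fosl2 rose by 2.04 and fell by 1.60. Junb rose by 1.29, with a log2 difference of -0.43 with LE that was not called (adjusted p = 0.0733 in limma). Fosl1 went the other way, at -1.51 with RANKL and 1.46 with LE. Mitf and Tfeb, of the family that binds E-boxes and M-boxes in lysosomal and osteoclast genes, had log2 differences of 0.48 (adjusted p = 0.00873) and -0.71 (adjusted p = 0.000976 in limma) with RANKL, which passed the p threshold and were under 2-fold. With LE the differences were -0.79 for Mitf (adjusted p = 0.00105), also under 2-fold, and 0.03 for Tfeb (adjusted p = 0.944). Tfe3, of the same family, differed by -0.65 with RANKL (adjusted p = 0.000934 in limma), under 2-fold, and by -0.04 with LE (adjusted p = 0.915). Over these lists together, 80 of 117 genes in the table were tested, of which 12 were called higher and 18 lower with RANKL, 4 higher and 9 lower with LE, and 7 higher and 12 lower in R+LE against -R.

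Genes close in pattern were found by the distance between log2(RPKM + 0.5) values over the 6 libraries after each gene was centred on its mean. The search was over tested genes other than the 7. Among those near to Acp5 were Akap6 and Oscar, at distances of 0.44 and 0.47. Among those near to Mmp14 were Siglec15 and Coq8a, at 0.38 and 0.46. The -R means were 0.012 RPKM for Akap6 and 0 for Oscar and Siglec15, so their distances depend on the added 0.5. The same holds for other distances here that involve a gene near 0 in -R. Outside the 7 genes, Ocstamp and Slc9b2 were nearest to Ctsk, Mmp9 and Car2, at 0.86 and 0.88, 1.65 and 1.67, and 0.96 and 0.996, followed by Itgb3 for Ctsk and Mmp9 and by Atp6v0d2 for Car2. Within the 7 genes, Acp5 and Mmp14 lay 0.51 apart and Ctsk and Car2 0.76 apart, and Mmp9 was 0.94 from Car2 and 0.95 from Ctsk, while Mmp9 and Ostm1 were the farthest pair at 7.64. Ctsk, Mmp9 and Car2 each lay nearer to another of these 3 than to Ocstamp.

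Clcn7 had other neighbours, Slc16a7, Mid1ip1 and Insig1, at 0.18, 0.21 and 0.22. Insig1, a brake on cholesterol synthesis, had means of 7.18 RPKM in -R, 14.9 in +R and 6.88 under R+LE. Ostm1 was closest to Coa5, Spg20 and Clpx, at 0.08 to 0.10, a small distance because none of these genes varied much.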

How the data were processed

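RNA of 6 libraries, 2 each of -R, +R and R+LE as the sample labels group them, was sequenced. The methods of the study name TopHat, whereas the submitters' processing notes name HISAT2, with HOMER and DESeq2; the versions are not given in the sources used here. The authors counted reads on the exons of mm10 genes with HOMER, on either strand and with 1 transcript a gene, and deposited the values as RPKM under titles that say FPKM. Of the symbols, 26 had become dates and were restored from transcript identifiers.

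Depth and whole reads were recovered from the RPKM steps and transcript lengths (at least 99.99% of the values checked were whole within 0.15 reads). The chi-square between replicates was 11.8 to 26.4 per gene, above sampling noise. RPKM are not counts, so log2(RPKM + 0.5) of genes averaging 0.5 RPKM or more was fitted with limma 3.58.1 in R 4.3.3, as group means of all 6 libraries with a variance trend, and p-values were adjusted by Benjamini-Hochberg over 11595 genes. On this scale the change of low genes comes out too small. How often a change near the 2-fold limit is missed or wrongly called was not tested. Python 3.11.15 with pandas 2.3.3 and matplotlib 3.10.9 made tables and plots. The genes, lists and tests were chosen with earlier results of these data known. The genes named are the 7, the 3 nearest to each in pattern (not all are reported here), called genes and high family members of the lists, and defining markers; others were named after their values were seen. Alternatives were other pseudocounts, filters, scalings and fits, a replicate block, voom on the recovered reads and each replicate left out.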

Additional observations from a re-analysis of the deposited data

How the results depend on the processing

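Of the 378 log2 fold changes of the 7 genes, from 21 results under 18 other settings each, 373 kept their direction and their side of the threshold. The exceptions were Clcn7 and Ostm1 in +R against -R. Clcn7 was called at 1.002 with Rn45s left out of the depth and at 1.02 per reads on genes without Rn45s, both chosen after seeing the data, and ranged from 0.85 to 1.03 with each replicate left out. Ostm1 ranged from -0.040 to 0.23 with each replicate left out, and was of the opposite sign, at -0.040, without +R replicate 1. A library left alone in its group was assumed to vary like the others. The log2 change of Car2 with RANKL ran from 5.89 to 11.85 and that of Ctsk from 5.95 to 8.46 over the other settings, since both were near 0 in -R. With voom, 259 genes were called higher in R+LE against +R, against 169. The log2 ratio of Mmp9 to Mmp14 in +R was 3.68 with a pseudocount of 0.1 and 3.66 with 1, against 3.67.

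With the replicate number as a block, 765 genes were called higher and 1036 lower with RANKL 173 and 216 with LE, and 457 and 743 in R+LE against -R, and no call among the 7 genes changed. Replicate differences correlated between groups at -0.05, 0.11 and 0.25 over genes, with 2 pairs a comparison, and the labels share only a number, so no pairing was assumed. Depth limits Car2 in -R, with 1 read and 0, and Ctsk, with 10 reads in each library.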
